A study of Mus musculus with 8 samples.

Results

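YAP and TAZ, the TEAD transcription factors, the vestigial-like (VGLL) cofactors and a pair of classical YAP targets were described in cultured mouse muscle satellite cells given the compound sal003 or its vehicle. The 10 genes were chosen by symbol: Yap1, Wwtr1 (which encodes TAZ), Tead1, Tead2, Tead3, Tead4, Vgll2, Vgll3, Ctgf and Cyr61. All 10 were found among the 39017 genes of the count table, and all 10 passed the filter on low counts that left 15816 genes for testing. Satellite cells, from which adult muscle regenerates, came from diaphragm and abdominal muscle of adult Pax3GFP/+ mice, which carry a green fluorescent reporter at 1 Pax3 allele. Cells of both groups were seeded at 7500 per 35 mm plate and cultured for 4 days, 4 cultures in DMSO and 4 in 10 µM sal003, an inhibitor of eIF2α dephosphorylation. Every group carries the reporter allele, and a line without it was not part of the comparison.

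YAP and TAZ are coactivators that do not bind DNA themselves. When the Hippo kinases MST and LATS are active, YAP and TAZ are phosphorylated and kept out of the nucleus, and when the kinases are inactive they enter it and bind TEAD factors, which sit on M-CAT elements. VGLL proteins bind TEAD through a surface that overlaps the one used by YAP and TAZ. In muscle, YAP is known for promoting the expansion of activated satellite cells, whereas TEAD factors also serve many genes of differentiated muscle. Because this regulation acts largely on protein location, the transcript levels given here do not measure YAP or TAZ activity.

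The core letters of an M-CAT element are GGAATG, or CATTCC on the other strand. RefSeq promoter windows of build GRCm38.p6, from 250 bases before to 50 after a start site, were matched for 7 of the 10 genes, some with several starts. The letters were present in at least 1 window of 5 of these genes, Yap1, Wwtr1, Tead3, Vgll3 and Cyr61, and in no window of Tead2 and Vgll2. Counted by window, 7 of the 10 windows of the 7 genes held the letters. Of all 32817 mouse windows of the same length, 14.7% held them on either strand. The windows of Wwtr1 overlap and hold the same match. The palindromic E-box CAGCTG, which no window of these genes held, was present in 16.3% of all windows. The 250 bases before the start are printed 5′ to 3′ on the strand of the gene, with the core letters in capitals, because they show which of the factors and targets carry the TEAD letters near their own start. They lie at chr3:145649986-145650235 on the minus strand for Cyr61, chr16:65814939-65815188 on the plus strand for Vgll3, chr9:8004597-8004846 on the minus strand for Yap1 and chr3:57575911-57576160 on the minus strand for the first start of Wwtr1.
Cyr61: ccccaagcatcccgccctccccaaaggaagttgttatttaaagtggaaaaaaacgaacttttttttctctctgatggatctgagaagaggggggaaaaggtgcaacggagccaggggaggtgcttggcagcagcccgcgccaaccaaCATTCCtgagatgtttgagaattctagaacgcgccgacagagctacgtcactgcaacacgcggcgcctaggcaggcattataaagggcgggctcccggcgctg
Vgll3: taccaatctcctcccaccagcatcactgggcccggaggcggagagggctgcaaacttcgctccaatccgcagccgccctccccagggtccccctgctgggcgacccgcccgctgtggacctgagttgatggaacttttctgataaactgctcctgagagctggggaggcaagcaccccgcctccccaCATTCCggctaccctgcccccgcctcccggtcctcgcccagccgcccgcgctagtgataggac
Yap1: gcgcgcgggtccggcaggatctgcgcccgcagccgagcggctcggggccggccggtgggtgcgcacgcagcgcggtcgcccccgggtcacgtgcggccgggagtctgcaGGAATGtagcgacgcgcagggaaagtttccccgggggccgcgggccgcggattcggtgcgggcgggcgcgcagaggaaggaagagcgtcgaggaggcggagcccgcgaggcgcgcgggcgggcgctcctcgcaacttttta
Wwtr1: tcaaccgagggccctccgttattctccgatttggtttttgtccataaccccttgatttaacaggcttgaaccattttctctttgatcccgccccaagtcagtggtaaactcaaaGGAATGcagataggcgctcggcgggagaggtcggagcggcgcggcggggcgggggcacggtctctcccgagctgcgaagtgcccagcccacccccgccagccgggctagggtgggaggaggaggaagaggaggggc

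The match began 103 bases before the start in Cyr61, 63 bases in Vgll3, 141 bases in Yap1 and 136 bases in Wwtr1. It read CATTCC in Cyr61 and Vgll3 and GGAATG in Yap1 and Wwtr1. Tead3 had 3 annotated starts, and a GGAATG began 182 bases before the first. Upstream of the middle start, 2 copies of CATTCC stood 3 bases apart, beginning 123 and 114 bases before that start. Both copies lie downstream of the first start, within the gene. The 30 bases around them lie at chr17:28350701-28350730 on the minus strand.
Tead3: ccgggctCATTCCgtaCATTCCggccatcc
A match of 6 letters is a description of the sequence, and binding of TEAD was not measured. Among the genes with such a match, Vgll3 and Tead3 were lower in sal003, and Yap1, Wwtr1 and Cyr61 did not pass the test between the groups. Of the genes with windows but no match, Vgll2 was lower and Tead2 did not pass. No window was matched for Tead4, which was also lower.

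Total counts ran from 32753929 to 40234107 per library, and may count the mates of a fragment separately. DMSO replicate 2 stood apart: 14437 genes had at least 1 count in it, against 16561 to 18076 in the other 7 libraries, and its Spearman correlation across tested genes with another DMSO library was at most 0.949. The cells carried muscle markers in both groups, some of them at different levels. In CPM, which are counts scaled to library size, Myod1 was 896 ± 85.8 in DMSO against 892 ± 52.3 in sal003, while Des was 2941 ± 224 against 1171 ± 40.7 (SD, n = 4). Marker lists of other cell types were mixed. Dcn, Lum, Cldn5, Emcn, Ptprc and Cnn1 were at 0 in all libraries, whereas Acta2, Cspg4, Col3a1, Abcc9, Tagln and Vwf had 1545, 197, 101, 77.2, 65.7 and 8.33 CPM in DMSO. The labels do not say whether replicates came from separate animals, so the p-values cover no more than the scatter among these libraries.

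Transcripts of the coactivators and of the targets Ctgf and Cyr61 did not pass the test, whereas a subset of the TEAD and VGLL genes was lower in sal003. Of the 10 genes 4 fell, Tead3, Tead4, Vgll2 and Vgll3, and 6 did not pass at an adjusted p below 0.05 in edgeR's quasi-likelihood test. None rose: 0 were higher with edgeR, 0 at an unadjusted p below 0.05, and 0 with DESeq2 or limma-voom. Over all tested genes 22.7% were called, 10.6% higher and 12.2% lower. The median log2 fold change was -0.16 over the 10 genes and -0.0034 over all tested genes. Groups of libraries did not overlap for 3 of the 10 genes, all lower in sal003. Over all tested genes, 26.8% had no overlap in either direction, and 13.7% were lower without overlap. In a bulk culture, fewer cells of a type and less RNA per cell cannot be told apart.

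**Figure D1:**
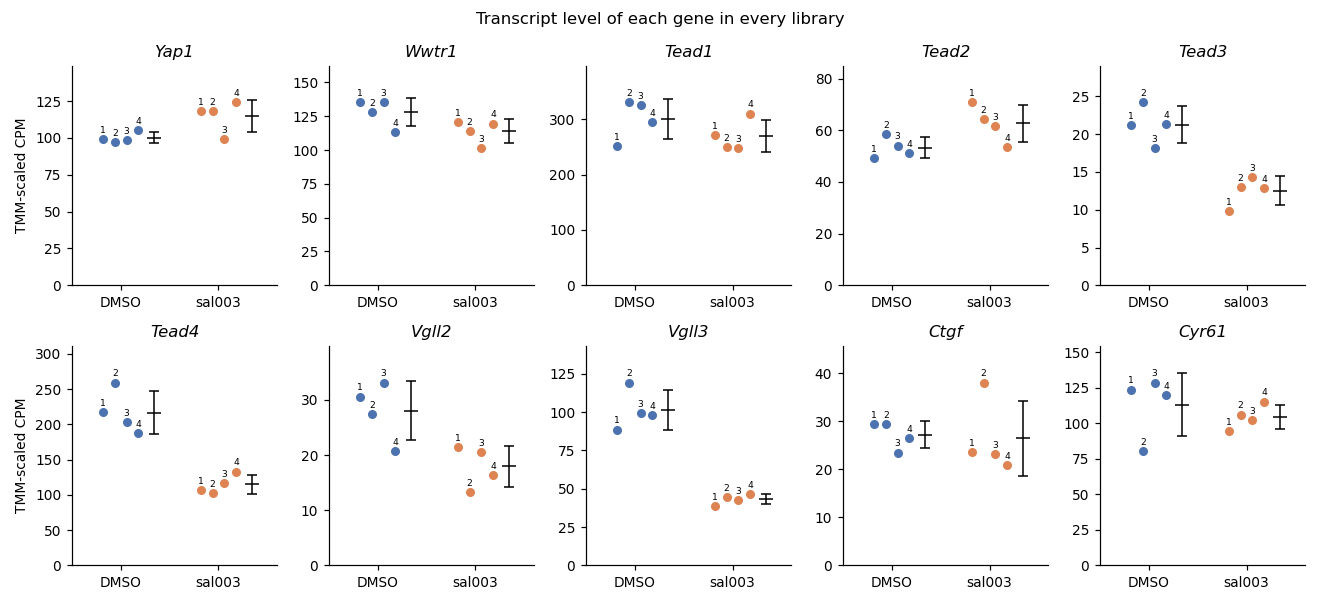
Level of each of the 10 genes in TMM-scaled CPM (y axis, from 0) in DMSO and sal003. Each numbered point is 1 library by replicate number, and the bar beside the points is the mean with SD (n = 4). All sal003 points lie below all DMSO points for Tead3, Tead4 and Vgll3, and the groups overlap for the other genes.

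Yap1 encodes the coactivator that gives the Hippo pathway its best known output (chromosome 9, 7931999 to 8004596, minus strand of mm10). Its level was 99.2, 97.4, 98.8 and 105 CPM in DMSO replicates 1 to 4 and 118, 118, 99.2 and 124 CPM in sal003 replicates 1 to 4. Only sal003 replicate 3 lay within the DMSO range, and the other 3 sal003 libraries were above it. The log2 fold change of 0.20 ± 0.10 (SE) did not pass (adjusted p = 0.181 by edgeR), with a 95% interval from -0.01 to 0.40.

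Wwtr1 encodes TAZ, the paralogue of YAP (chromosome 3, 57455649 to 57575910, minus strand). Its level was 135, 128, 135 and 113 CPM in the DMSO libraries and 121, 114, 101 and 119.6 CPM in sal003, again by replicate number. DMSO replicate 4 fell among the sal003 values, and the other 3 DMSO libraries lay above all of sal003. The log2 fold change was -0.17 ± 0.10 (adjusted p = 0.274 by edgeR, 95% interval -0.38 to 0.04).

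The estimates of the coactivators thus had opposite signs, and neither passed. Levels of different genes were compared per kilobase (kb) of annotated exon. The summed level of Yap1 and Wwtr1 was 37.6 ± 1.82 CPM per kb in DMSO, against 36.2 ± 3.02 with sal003 (SD, n = 4). Yap1 made up 27.5, 28.2, 27.4 and 32.4% of that sum in the DMSO libraries and 33.5, 34.8, 33.6 and 34.9% in the sal003 libraries. All sal003 shares lay above all DMSO shares, by 5.36 percentage points between the means. The size of the share depends on the length used: with the longest transcript in place of all exons it was 41.1% ± 2.77 in DMSO and 47.3% ± 0.820 in sal003.

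Among the DNA-binding TEAD factors the pattern was split. Tead4, the member most associated with differentiating myoblasts, had the highest level per kb of the family in both groups (chromosome 6, 128224288 to 128300823, minus strand). It stood at 217, 259, 203 and 187 CPM in the DMSO libraries and at 107, 103, 117 and 133 CPM in sal003. The lowest DMSO library was above the highest sal003 library, and the log2 fold change was -0.91 ± 0.11 (adjusted p = 2.30e-05 by edgeR).

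Tead3, the least abundant TEAD transcript per kb, also fell (chromosome 17, 28331671 to 28350817, minus strand). Its level went from 21.2, 24.2, 18.2 and 21.3 CPM in DMSO to 9.78, 13.0, 14.3 and 12.9 CPM in sal003, with no overlap. The log2 fold change was -0.76 ± 0.20 (adjusted p = 0.0101 by edgeR). These are 399 to 816 counts per library, so Tead3 is measured less finely than Tead4, which had 4348 to 8742.

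Tead1, the TEAD factor with the most counts here, is broadly expressed in muscle (chromosome 7, 112679318 to 112906807, plus strand). It was measured at 252, 331, 326 and 294 CPM in the DMSO libraries and at 271, 250.1, 248 and 311 CPM in sal003. The groups overlapped widely, and the log2 fold change of -0.16 ± 0.10 did not pass (adjusted p = 0.344 by edgeR, 95% interval -0.38 to 0.06). Tead2, a paralogue known from embryonic tissue, gave 49.2, 58.5, 54.1 and 51.1 CPM in DMSO and 70.8, 64.4, 61.6 and 53.6 CPM in sal003 (chromosome 7, 45215753 to 45233644, plus strand). Only sal003 replicate 4 lay within the DMSO range. The estimate of 0.23 ± 0.12 (log2) did not pass either (adjusted p = 0.203 by edgeR, 95% interval -0.02 to 0.49).

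**Figure D2:**
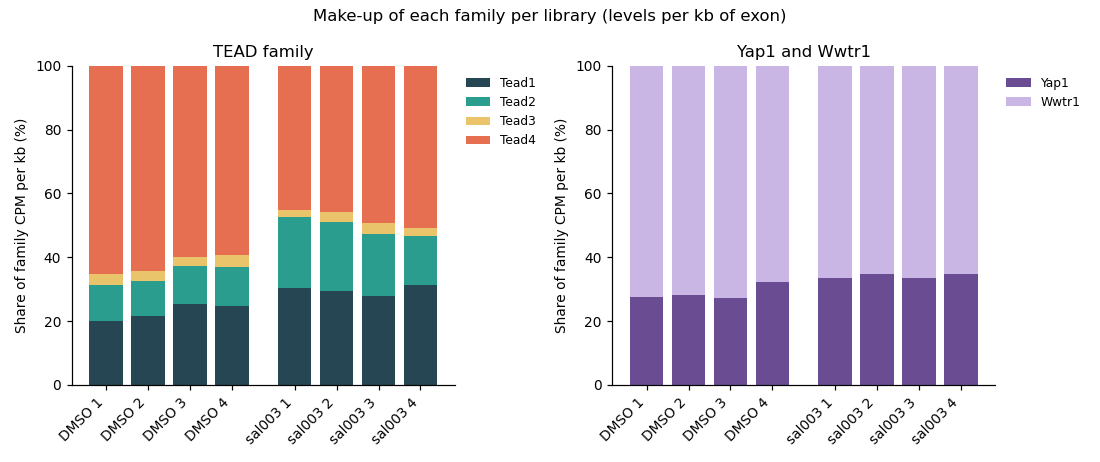
Stacked bars give the share (%) of each gene in the summed CPM per kb of exon of its family, for the TEAD family (left) and for Yap1 with Wwtr1 (right), with 1 bar per library. The Tead4 share is below 51% in the 4 sal003 libraries and above 59% in the 4 DMSO libraries.

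The make-up of the TEAD transcript pool differed accordingly. The summed TEAD level ran from 87.6 to 112 CPM per kb in DMSO and from 62.5 to 73.0 CPM per kb in sal003. Tead4 held 62.2% ± 3.04 of it in DMSO and 47.8% ± 2.71 in sal003 (SD, n = 4). Tead1 held 23.0% ± 2.52 and 29.7% ± 1.51, and Tead2 held 11.5% ± 0.634 and 19.7% ± 3.15. For these genes the groups of libraries did not overlap. Tead3 held 3.28% ± 0.323 in DMSO and 2.80% ± 0.470 in sal003, with overlap. Shares within a family sum to a whole, so the larger shares of Tead1 and Tead2 go with the lower Tead4 and are not evidence that those transcripts rose.

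Of the VGLL cofactors, Vgll3 had the largest estimate among the 10 genes and Vgll2 the smallest among the 4 that fell. Vgll3, a cofactor that binds TEAD in muscle progenitors, stood at 88.5, 119, 99.3 and 97.9 CPM in the DMSO libraries and at 38.9, 44.5, 42.5 and 46.7 CPM in sal003 (chromosome 16, 65815257 to 65866368, plus strand). Its lowest DMSO library was well above its highest sal003 library. The level was 2.35-fold lower in sal003, a log2 fold change of -1.23 ± 0.12 (adjusted p = 1.49e-06 by edgeR).

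Vgll2, the muscle-enriched family member, stood at 30.6, 27.5, 33.1 and 20.8 CPM in the DMSO libraries and at 21.4, 13.4, 20.5 and 16.4 CPM in sal003 (chromosome 10, 52022502 to 52028471, plus strand). The groups overlapped, since DMSO replicate 4 was below sal003 replicate 1. The log2 fold change of -0.64 ± 0.20 passed (adjusted p = 0.0304 by edgeR) and was lost on leaving out any 1 of 4 libraries. The adjusted p was then 0.0850 or 0.107 with DMSO replicate 1 or 3 left out, and 0.108 or 0.0851 with sal003 replicate 2 or 4 left out.

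Of the VGLL genes outside the 10, Vgll4, a cofactor known to compete with YAP for TEAD, fell as well. It stood at 38.0, 36.2, 32.3 and 34.9 CPM in the DMSO libraries and at 22.4, 21.8, 20.1 and 15.3 CPM in sal003, without overlap (log2 fold change -0.83 ± 0.16, with adjusted p = 0.00135 by edgeR). Vgll1 had 0 counts in all 8 libraries.

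**Figure D3:**
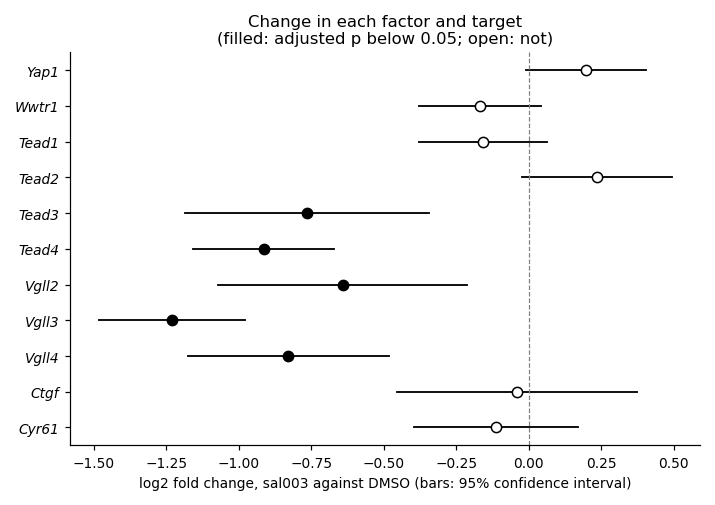
Log2 fold change of sal003 against DMSO for the 10 genes and Vgll4 (x axis), with 95% confidence intervals from edgeR's quasi-likelihood fit. Filled points passed at an adjusted p below 0.05. The filled points of Tead3, Tead4, Vgll2, Vgll3 and Vgll4 lie left of 0, and the intervals of the other 6 genes include 0.

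Cyr61 and Ctgf encode secreted matricellular proteins of the CCN family, and both are textbook transcripts for reading YAP and TEAD output. Cyr61 stood at 124, 80.4, 129 and 120.0 CPM in the DMSO libraries and at 94.6, 106, 103 and 115 CPM in sal003 (chromosome 3, 145646976 to 145649981, minus strand). The low DMSO value was that of replicate 2, and the other 3 DMSO libraries were above all of sal003. The log2 fold change was -0.11 ± 0.13 (adjusted p = 0.644 by edgeR, 95% interval -0.40 to 0.17). Without DMSO replicate 2 it was -0.23 (adjusted p = 0.0635), a larger estimate that still did not pass.

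Ctgf stood at 29.4, 29.4, 23.5 and 26.5 CPM in the DMSO libraries and at 23.7, 38.0, 23.2 and 20.9 CPM in sal003 (chromosome 10, 24595442 to 24598683, plus strand). Sal003 replicate 2 was above every other library, and the other 3 sal003 libraries were within or below the DMSO range. The log2 fold change was -0.04 ± 0.19 (adjusted p = 0.929 by edgeR), and its interval from -0.45 to 0.37 spans 0.730 to 1.30 times the DMSO level. Without sal003 replicate 2 the estimate was -0.27 (adjusted p = 0.395). The annotated antisense gene Gm15270 overlaps 23.2% of the exon bases of Ctgf. Gm15270 itself had 0 to 72 counts per library, against 799 to 1603 for Ctgf.

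By level per kb, the order in DMSO was Tead4 (60.2 ± 8.60 CPM per kb), Cyr61 (56.1 ± 11.0), Wwtr1 (26.8 ± 2.14), Tead1 (22.2 ± 2.66), Vgll2 (17.0 ± 3.24), Vgll3 (14.3 ± 1.81), Tead2 (11.1 ± 0.852), Yap1 (10.8 ± 0.382), Ctgf (9.51 ± 0.991) and Tead3 (3.16 ± 0.366). The neighbours Tead4 and Cyr61, Wwtr1 and Tead1, Tead1 and Vgll2, Vgll2 and Vgll3, and Tead2 and Yap1 overlapped between libraries. In sal003 Cyr61 came first at 51.8 ± 4.25 CPM per kb, clear of Tead4 at 31.9 ± 3.72. Vgll3 was the ninth there at 6.07 ± 0.470 CPM per kb, and Tead3 the last at 1.86 ± 0.287. Places in the order depend on the length used. With the longest transcript, Yap1 was the fifth in both groups, at 19.0 ± 0.669 CPM per kb in DMSO, and Vgll3 was the eighth in DMSO and the ninth in sal003.

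The nearest expression patterns were sought for the 4 genes that fell, as the smallest root mean square difference in log2 CPM centred on each gene, over 8 libraries and 12515 protein-coding genes. Tead4 was nearest to the kinase gene Akt2 (difference 0.0821), then to Pnmal2 (0.0857) and Fndc1 (0.0863). For Vgll3 the nearest were 1700021K19Rik (0.0943), 4933426M11Rik (0.0989) and Synpo2l (0.108). Tead3 was nearest to the tetraspanin Tspan3 (0.0990), the laminin chain Lamb2 (0.109) and Arhgef17 (0.109), which also belongs to the list of YAP targets. For Vgll2 the nearest were Mxd1 (0.161), Sphk2 (0.162) and Mvd (0.170), at larger distances than for the other 3 genes, and none of these passed the test.

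More of the further YAP targets fell than rose. A list of 20 genes that recur in YAP target signatures, apart from Ctgf and Cyr61, had 19 members tested, of which 7 fell, 2 rose and 10 did not pass. The median log2 fold change was -0.33, beside -0.0034 over all tested genes, of which 12.2% fell and 10.6% rose, so the 2 higher of 19 are at the background. This list, like the lists below, was chosen with earlier results of these data known, so its counts are no independent evidence. Ankrd1, a nuclear ankyrin repeat protein of muscle and a widely used YAP reporter, was measured at 873 ± 119 CPM with DMSO, against 534 ± 49.3 CPM with sal003 (SD, n = 4), a log2 fold change of -0.71 ± 0.10. Tgfb2, a ligand of the TGF-β family, went from 159 ± 24.9 to 41.4 ± 9.71 CPM, and the stress gene Gadd45a from 267 ± 37.6 to 99.1 ± 12.2 CPM. Amotl2, a target that also binds and restrains YAP, went from 572 ± 75.1 to 290.0 ± 11.1 CPM. The receptor kinase Axl rose from 196 ± 16.4 to 332 ± 23.9 CPM, and the Arf regulator Asap1 from 69.2 ± 10.4 to 118 ± 5.96 CPM. For each of these 6 genes, edgeR's adjusted p was 0.000124 or lower and the groups of libraries did not overlap. Gadd45a is also a known p53 target, so membership of the list does not assign the change to YAP.

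The remaining CCN genes were mostly silent. Wisp1, a WNT-inducible CCN protein, rose from 37.0 ± 7.09 to 61.1 ± 8.70 CPM (0.72 ± 0.16 on the log2 scale, with adjusted p = 0.00278 by edgeR). Nov, Wisp2 and Wisp3 did not reach the count filter.

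Of the core kinase cassette, which phosphorylates YAP and TAZ, all 7 genes were tested, and 1 rose, 1 fell and 5 did not pass (median log2 fold change 0.22). These 2 of 7 are near the 22.7% called over all tested genes. Lats1 and Lats2, the kinases that act directly on YAP and TAZ, moved in opposite directions. Lats1 stood at 50.8, 59.3, 62.6 and 64.2 CPM in the DMSO libraries and at 108, 118, 93.5 and 97.8 CPM in sal003, a log2 fold change of 0.82 ± 0.11 (adjusted p = 6.76e-05 by edgeR). Lats2, itself a YAP target, stood at 157, 171, 163 and 171 CPM in the DMSO libraries and at 122, 129, 127 and 139 CPM in sal003 (log2 fold change -0.36 ± 0.09, adjusted p = 0.00655). Groups of libraries did not overlap for either gene. The log2 fold changes of the MST kinases Stk3 and Stk4 were 0.53 ± 0.19 (adjusted p = 0.0536) and 0.22 ± 0.12 (adjusted p = 0.246). The scaffold Sav1 and the LATS cofactors Mob1a and Mob1b had log2 fold changes of 0.11, 0.17 and 0.27, and none passed (adjusted p = 0.599, 0.424 and 0.173).

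Upstream regulators of the pathway numbered 20, all tested, of which 6 fell, 1 rose and 13 did not pass (median log2 fold change -0.13), beside the same 12.2% and 10.6%. Dchs1, an atypical cadherin that serves as ligand of FAT4, went from 275 ± 36.5 to 75.5 ± 8.06 CPM. The LIM protein Ajuba, which inhibits LATS, went from 71.2 ± 15.3 to 36.5 ± 5.53 CPM. Strn3, a subunit of the STRIPAK phosphatase complex, had a log2 fold change of -0.57 ± 0.09, and the phosphatase Ptpn14, which binds YAP, of -0.43 ± 0.09. The gene that rose was Map4k4, a kinase that can phosphorylate LATS, with 852 ± 43.5 CPM in DMSO against 1035 ± 13.4 CPM in sal003 (log2 fold change 0.28 ± 0.07, with adjusted p = 0.00931 by edgeR). Amotl2, Lats2 and Ptpn14 stand in more than 1 of these lists. Counted once each, 45 genes of the kinase, regulator, VGLL, YAP target and CCN lists were tested, of which 12 fell and 5 rose, beside 12.2% lower and 10.6% higher over all tested genes.

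**Figure D4:**
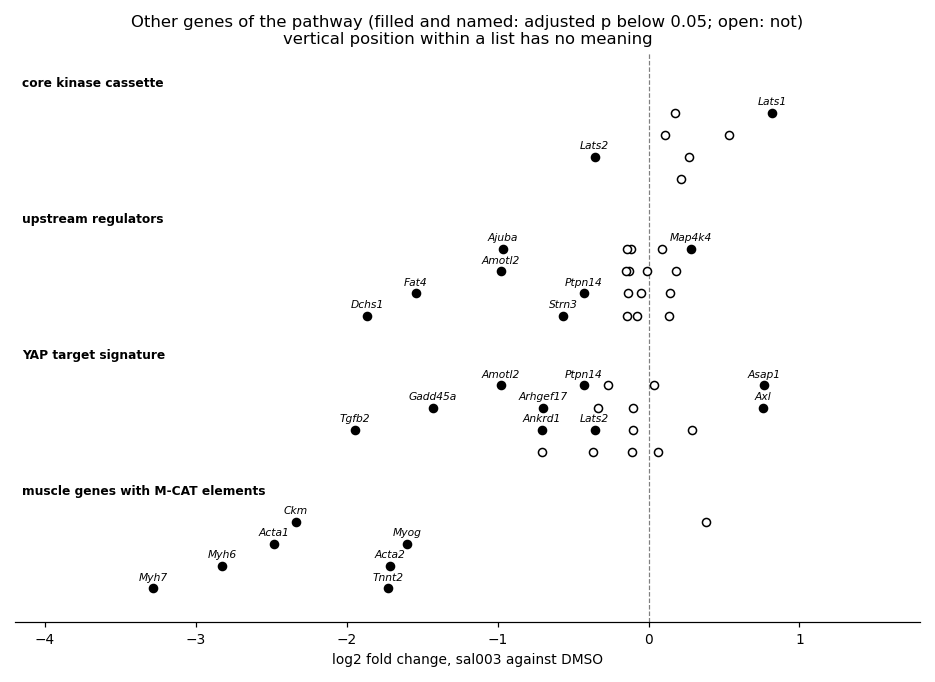
Log2 fold change of sal003 against DMSO (x axis) for tested genes of 4 lists, with 1 point per gene. Filled, named points passed at an adjusted p below 0.05, and the height within a list carries no value. The kinase list lies on both sides of 0, and 7 of the 8 muscle genes with M-CAT elements lie below -1.5.

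Of 8 muscle genes known to carry M-CAT elements, 7 fell, each by more than any of the 10 genes, and the median log2 fold change was -2.03. The exception, Myf5, had 0.38 ± 0.19 (adjusted p = 0.190 by edgeR). Myog, the regulator of terminal differentiation, had 2634 ± 248 CPM with DMSO, against 870.3 ± 66.0 CPM with sal003. The slow myosin gene Myh7 went from 923 ± 125 to 94.7 ± 22.1 CPM, and skeletal actin Acta1 from 5650.2 ± 342 to 1009 ± 211 CPM. These genes were listed with their fall in the same libraries already known, so their direction is no independent evidence, and other muscle factors also drive them.

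Marker lists of other cell types moved with these changes in part. Their counts stand beside the 12.2% of all tested genes that were lower and the 10.6% that were higher. The summed level of 10 smooth muscle and pericyte markers ran from 1796 to 1975 CPM with DMSO and from 552 to 750 CPM in sal003, and 4 of the 6 tested fell. Most of both sums was Acta2, which also stands in the list of muscle genes with M-CAT elements. Acta2 went from 1545 ± 64.2 to 470 ± 84.9 CPM, Cspg4 from 197 ± 32.5 to 149 ± 14.0, Abcc9 from 77.2 ± 3.83 to 15.2 ± 1.14 and Tagln from 65.7 ± 5.47 to 12.1 ± 4.45, while Cnn1 and Higd1b were at 0 and Myh11 at 0.804 ± 0.972 CPM in DMSO. Of 5 Schwann cell markers, summed at 119 to 166 CPM in DMSO and 77.5 to 90.3 CPM in sal003, Ngfr fell. Of 5 mesothelial markers, summed at 6.65 to 8.24 CPM in DMSO and 1.49 to 3.79 CPM in sal003, Msln fell, and Upk3b and Lrrn4 were at 0. The 8 endothelial markers summed to 9.13 to 12.3 CPM in DMSO and 5.27 to 9.28 CPM in sal003, and Vwf was the 1 that fell. The 12 fibro-adipogenic markers summed to 112 to 130 CPM in DMSO and 111 to 126 CPM in sal003, where the lowest adjusted p of the 5 tested was 0.0642 (Col1a2), and Dcn, Lum, Dpt, Tcf21 and Mfap5 were at 0. The 7 immune markers matched summed to 1.85 to 4.64 CPM in DMSO and 3.81 to 5.71 CPM in sal003, with Ptprc and Lyz2 at 0. The part of these cell types in the changes of the TEAD and VGLL genes was not tested. Of 14 satellite cell and myoblast markers, 13 were tested, Pax7 rose and 6 fell, among them Des, Chrna1 and Cdh15. These counts, too, stand beside the 12.2% lower and 10.6% higher. Myog, which fell, and Myf5, which did not pass, also stand in the list of muscle genes with M-CAT elements. Of the same markers, Cd34 was at 0.311 ± 0.502 CPM in DMSO and Msc had no counts there.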

How the data were processed

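RNA was measured in 8 satellite cell cultures, 4 in DMSO and 4 in sal003. For sal003 the labels name both 10 µM (design text, sample attributes) and 10 mM (protocol). The text uses 10 µM. Per the labels' protocols, stranded SMARTer libraries of RNA depleted of ribosomal and mitochondrial transcripts were sequenced on a MiSeq. The authors deposited whole-number counts per Ensembl gene over exons. The build was mm10 and the tools were featureCounts 1.4.4, STAR 2.3.0e and Trimmomatic 0.32, per the submitters' processing notes. How strand and multi-mapping reads were handled is not given in the sources used here, which leaves overlapping genes uncertain. Of counts from 1 to 20, 75.6 to 83.4% were even per library, and a MiSeq, the instrument in the labels, usually gives smaller totals. The mates of a fragment may have been counted separately, in which case printed counts exceed fragments, so counts divided by 2 were an alternative. Replicate pairs differed beyond counting noise (chi-square per degree of freedom at least 25.3), and no library was treated as a duplicate.

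In R 4.3.3 with edgeR 4.0.16, low genes were removed with filterByExpr (minimum count 10, minimum total 15), and the rest were scaled by TMM and tested two-sided by robust quasi-likelihood, with treatment alone in the model and Benjamini-Hochberg adjustment over 15816 genes. The SE is the log2 fold change divided by the square root of F. CPM are TMM-scaled. Lengths, positions and overlaps come from GENCODE M21 (mm10), and promoters from RefSeq (GRCm38.p6). Alternatives were other scalings, filters, DESeq2 1.42.0, limma-voom (limma 3.58.1), a replicate block, protein-coding genes only and leaving out each library. The fit was tested on simulated data.

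The 10 genes and the lists were chosen with earlier results of these data known. Named genes are the 10, up to 6 genes past the threshold per list in order of p, every gene of the kinase, VGLL and CCN lists, and the 3 nearest patterns of each of the 10 that passed. Myod1, Myf5, Col1a2, Gm15270 and markers at or near 0 are named outside this rule, after their values were seen.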

Additional observations from a re-analysis of the deposited data

Results flagged for a closer look

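Ctgf stood at 38.0 CPM in sal003 replicate 2, far from the 20.9 to 23.7 CPM of the other 3 sal003 libraries. The gap to the nearest library was 0.841 of the group's range, just above the 95% critical value of Dixon's test for 4 libraries. Across the 10 genes 20 such groups were examined and this was the 1 that passed, where chance gives about 1 in 20. Cyr61 in DMSO replicate 2, at 80.4 CPM, came close with 0.821. Cyr61 in sal003 replicate 2 was 106 CPM, within the range of its group.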

How the results depend on the processing

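Counts of genes called, over the 10 genes, the wider pathway and all genes, stayed within 1.5 times of their values under all alternatives run. The differences in TEAD and YAP/TAZ shares between the groups moved by less than the larger of the SDs of the DMSO and sal003 groups. For Yap1, Tead2 and Tead3 they moved by more than the smaller SD in at least 1 alternative. The shares themselves moved with the length used, the Tead3 share from 3.28 to 5.05% in DMSO with the longest transcript. Of the 10 genes, 0 were higher in any alternative and 4 were lower in each of 9 alternatives of scaling, filter, test and model, and 3 to 4 on leaving out 1 library. Tead3, Tead4 and Vgll3 were called lower in all 17 alternatives, with adjusted p up to 0.0425 for Tead3, and Vgll2 in 13. Yap1, Wwtr1, Tead1, Tead2, Ctgf and Cyr61 were called in 0 of 17. The uncalled Ctgf estimate ran from -0.27 to 0.064 on leaving out 1 library and changed sign to 0.0049 with limma-voom, 0.010 without DMSO replicate 1, 0.014 without DMSO replicate 2, and 0.016, 0.024 and 0.064 without sal003 replicates 1, 3 and 4, and the cause was not tested. Stk3 passed in 7 of 17 alternatives (adjusted p from 0.0203), which takes the kinase list from 1 to 2 higher genes, Cspg4 did not pass in 2, nor Msln in 1, and Mxd1 passed in 2 and Mvd in 1. With the replicate block, 1660 genes were higher and 1770 lower over all genes, and 4 of the 10 were lower. The labels do not say that same-numbered libraries are paired. The correlations of their deviations from the group means ran from -0.0053 to 0.035, and not every library matched its own number best. With 4 libraries per group, these correlations cannot decide whether the cultures were paired. On leaving out each library, the difference between sal003 and DMSO ran from -15.4 to -13.4 percentage points for the Tead4 share (-14.4 with all libraries) and from 4.87 to 6.54 for the Yap1 share (5.36 with all), an alternative chosen after seeing the data. Of the 10 genes Tead3, Vgll2 and Ctgf had the fewest counts, 399 to 1603 per library, and how much of their error comes from depth was not tested.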
